A study of Mus musculus with 9 samples.

Results

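Expression of 10 genes of the Notch pathway was compared over the 3 layers of the newborn mouse bladder. The genes were the receptors Notch1, Notch2 and Notch3, the ligands Jag1, Jag2 and Dll1, and the target genes Hes1, Hey1, Hey2 and Heyl. All probe sets that the platform annotation gives to these symbols were taken, 18 in all among the 45101 on the array. Of these, 15 probe sets of 9 genes passed the filter on dim values, and those 9 genes were tested among 13064. Hey2 did not pass, and its values are given without a test.

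Urothelium, the epithelial lining, detrusor, the smooth muscle coat, and stroma, the tissue between them, were laser captured from frozen sections of 8 microns. Each layer had 3 arrays, 1 per unpooled sample. Every animal was FVB/N and carried the SMGA/EGFP transgene, a reporter for smooth muscle gamma actin (Actg2), so no group lacked it. Their sex is given as unknown. Samples came from postnatal day 1 (1 urothelium, 2 detrusor and 1 stroma arrays) and postnatal day 2 (2 urothelium, 1 detrusor and 2 stroma arrays). The labels do not tie arrays to animals, so each p-value reflects the scatter of these samples alone, and that scatter may be technical. Array medians ranged from 133.2 to 388.4 at a common trimmed mean of 1500.

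Notch receptors are cut after they bind a ligand on a neighbouring cell, and the freed intracellular part joins the DNA-binding protein RBPJ in the nucleus. The complex switches on target genes, among them the Hes and Hey genes, whose bHLH proteins repress transcription. The pathway is known for its part in blood vessel and smooth muscle development and in choices between cell fates in epithelia.

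Promoter sequences are shown for the receptor that differed between layers, for the pair of ligands whose levels moved together over the arrays, and for the 1 member promoter that held the letters TGGGAA, the core that RBPJ binds. They are the 250 bases before and 50 after the start of the gene, from RefSeq on GRCm38.p6, all on the minus strand and written 5′ to 3′ along the gene. Capitals mark TGGGAA, or TTCCCA where the letters lie on the opposite strand.
Notch1, chr2:26503773-26504072: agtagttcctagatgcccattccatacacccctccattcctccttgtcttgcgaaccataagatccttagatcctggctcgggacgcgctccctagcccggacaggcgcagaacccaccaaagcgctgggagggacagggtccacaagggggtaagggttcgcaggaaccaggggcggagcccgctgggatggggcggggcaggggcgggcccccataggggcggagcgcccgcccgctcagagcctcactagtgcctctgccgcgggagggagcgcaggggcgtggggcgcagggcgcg
Jag1, chr2:137116471-137116770: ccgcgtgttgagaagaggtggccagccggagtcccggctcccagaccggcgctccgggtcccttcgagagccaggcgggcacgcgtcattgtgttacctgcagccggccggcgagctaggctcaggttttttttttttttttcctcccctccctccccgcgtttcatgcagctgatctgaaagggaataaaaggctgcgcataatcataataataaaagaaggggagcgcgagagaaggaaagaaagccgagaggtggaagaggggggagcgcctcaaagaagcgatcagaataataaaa
Dll1, chr17:15376883-15377182: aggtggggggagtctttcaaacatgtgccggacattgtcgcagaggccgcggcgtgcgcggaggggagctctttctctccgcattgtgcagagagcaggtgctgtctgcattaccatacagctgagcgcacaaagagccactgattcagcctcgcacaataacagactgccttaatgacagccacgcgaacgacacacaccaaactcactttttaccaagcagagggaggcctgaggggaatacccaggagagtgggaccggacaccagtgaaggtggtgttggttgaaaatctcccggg
Hey2, chr10:30842734-30843033: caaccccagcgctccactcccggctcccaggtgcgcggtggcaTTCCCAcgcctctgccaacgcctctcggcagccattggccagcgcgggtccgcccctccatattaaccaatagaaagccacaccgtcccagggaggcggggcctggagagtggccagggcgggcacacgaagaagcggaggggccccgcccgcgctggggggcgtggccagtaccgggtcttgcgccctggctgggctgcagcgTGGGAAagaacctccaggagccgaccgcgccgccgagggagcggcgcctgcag
A window was at hand for 7 of the 10 genes, with 2 windows for Dll1, and not for Hes1, Hey1 and Heyl. Hey2 alone of the 7 held the letters, 1 copy on each strand, which did not overlap. Of all 32851 windows of this length, 25.6% held them on either strand. A match of letters is a description and not a binding site, and its absence says only that these letters are not in the window. The windows of Notch1, Jag1, Dll1 (the one shown) and Hey2 held 23, 22, 15 and 29 CG pairs, against a median of 7 over all windows.

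The values are the authors' scaled probe set intensities, and levels were compared as log2(intensity + 39.31), where the added constant understates the change of low genes. A gene was called when its adjusted p, from a limma fit over all 9 arrays with Benjamini-Hochberg adjustment over the 13064 genes, was under 0.05. The smooth muscle markers (8 of 8 measured) had median log2 levels of 9.97, 9.07 and 15.47 in urothelium 1, 2 and 3, of 15.73 to 16.40 in detrusor and of 11.03 to 13.61 in stroma. The urothelial markers (8 of 8) stood at 13.40 to 14.79 in urothelium, at 7.92 to 8.31 in detrusor, and at 11.61, 9.37 and 13.15 in stroma 1, 2 and 3. Urothelium 3 thus carried muscle transcripts at a level just under that of detrusor. Stroma 3 carried urothelial transcripts at a level just under that of urothelium, and stroma 1 and 2 also stood above detrusor for them. Skeletal muscle markers (4 of 5) stood at 6.67, 5.70 and 10.48 in urothelium, at 13.20 to 13.92 in detrusor and at 7.78 to 8.63 in stroma, and their part in the values of the Notch genes was not tested. No marker is listed at 0. In such bulk samples, fewer cells of a type and less RNA per cell cannot be told apart.

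**Figure D1:**
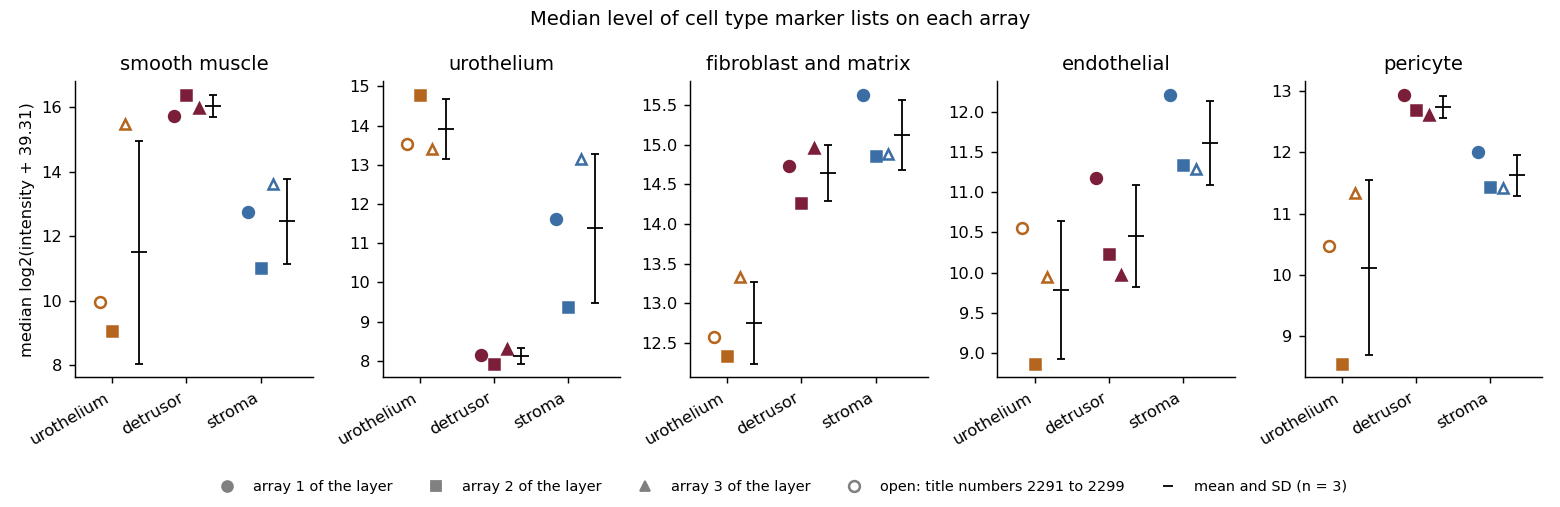
Median log2(intensity + 39.31) of 5 lists of cell type markers on each array, by layer, each panel with its own vertical scale. Points are arrays, bars the mean and SD of 3 arrays, and open points the arrays with title numbers 2291 to 2299. Urothelium 3 stands at 15.47 for smooth muscle markers and stroma 3 at 13.15 for urothelial markers.

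Of the 9 genes tested, Notch1 alone was called, and in the comparisons that involve detrusor. Between detrusor and stroma 1 of 9 was lower and 0 were higher, where 5.84% of all genes were called (2.72% lower and 3.12% higher). Between urothelium and stroma 0 of 9 were called, against 0.230% of all genes (0.0612% higher and 0.168% lower). Between urothelium and detrusor 1 of 9 was higher and 0 were lower, against 16.4% of all genes (8.37% higher and 8.05% lower). Without stroma 3 and urothelium 3 the members called in these 3 comparisons were 0, 0 and 1, where 428, 440 and 1884 of all genes were. The median difference of the 9 genes was -0.81 between detrusor and stroma, 0.00 between urothelium and stroma and 0.96 between urothelium and detrusor, and over all genes it was -0.16, -0.12 and -0.01. When arrays were centred on their medians, the all-gene values rose by 0.41, 0.42 and 0.01. The medians against stroma thus depend on the scaling kept. With a median standard error of 0.45 log2 units, an uncalled difference is no sign of equal levels.

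**Figure D2:**
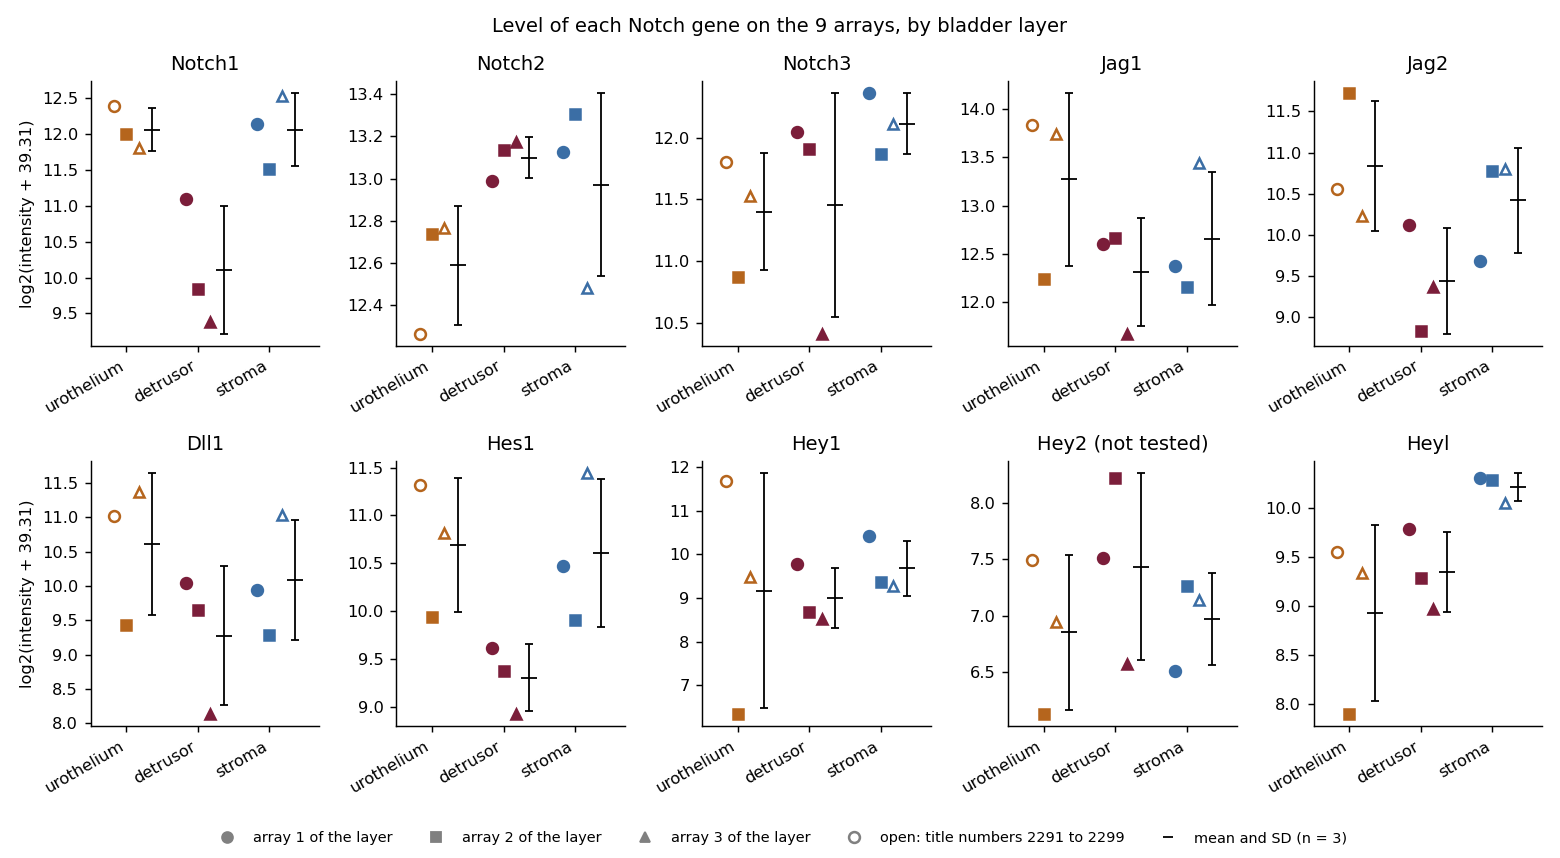
Log2(intensity + 39.31) of the 10 Notch genes on each array, with the probe set that stands for the gene, by layer and each panel with its own vertical scale. Points are arrays, bars the mean and SD of 3 arrays, and open points the arrays with title numbers 2291 to 2299. All 3 detrusor points of Notch1 lie below every urothelium and stroma point.

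Notch1, a receptor found on many epithelia and on endothelium, was low in detrusor. Its intensity was 5328, 4062 and 3542 in urothelium 1, 2 and 3, against 2153, 875 and 627 in detrusor 1, 2 and 3, and 4493, 2890 and 5871 in stroma 1, 2 and 3. Every detrusor array was below every array of the other layers, and urothelium and stroma overlapped. The log2 level averaged 12.07 ± 0.30 in urothelium, 10.10 ± 0.89 in detrusor and 12.06 ± 0.51 in stroma (SD, n = 3 each). Notch1 was 3.89-fold lower in detrusor than in stroma (log2 -1.96 ± 0.46, SE, limma adjusted p = 0.0337). It was 3.89-fold higher in urothelium than in detrusor (log2 1.96 ± 0.46, limma adjusted p = 0.0147). Urothelium and stroma differed by log2 0.00 ± 0.46.

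Split by day, both Notch1 differences kept their direction. This follows from the lack of overlap given above and is no separate support. Detrusor minus stroma was -1.68 on day 1 (2 and 1 arrays) and -2.64 on day 2 (1 and 2 arrays), and urothelium minus detrusor was 1.53 on day 1 (1 and 2 arrays) and 2.72 on day 2 (2 and 1 arrays). Detrusor 1, the highest detrusor array for Notch1, also had the highest summed intensity of 9 measured endothelial markers in that layer, 30038 against 11574 and 10575 in detrusor 2 and 3. The endothelial sum ranged from 3895 to 12969 in urothelium, from 10575 to 30038 in detrusor and from 19323 to 41256 in stroma, and its part in the Notch1 values was not tested. The call against stroma rested on single arrays, with limma adjusted p of 0.114 without detrusor 2, 0.143 without detrusor 3, 0.0513 without urothelium 1, 0.0707 without stroma 1, 0.097 without stroma 3, 0.119 without stroma 3 and urothelium 3, and 0.0848 with arrays centred on their medians. The call for urothelium against detrusor was lost without detrusor 2 (adjusted p = 0.0558), detrusor 3 (adjusted p = 0.0681) or urothelium 1 (adjusted p = 0.0581), and stayed without stroma 3 and urothelium 3 (log2 2.09, adjusted p = 0.0306).

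Notch2, a receptor with wide expression in embryonic and adult tissue, varied least by the probe set that stands for it. Its intensity was 4873, 6781 and 6920 in urothelium 1, 2 and 3, against 8081, 8969 and 9187 in detrusor, and 8910, 10090 and 5667 in stroma. By this probe set urothelium lay below detrusor on all arrays, and stroma spanned both. The differences were log2 0.13 ± 0.29 between detrusor and stroma, -0.38 ± 0.29 between urothelium and stroma and -0.51 ± 0.29 between urothelium and detrusor (SE), none of them called (limma adjusted p = 0.828, 0.52 and 0.283). By the second Notch2 probe set that passed, urothelium (279, 128 and 282) and detrusor (316, 272 and 235) overlapped. Its differences were log2 0.34, 0.07 and -0.27 in the same order, none of them called.

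Notch3, the receptor known from mural cells, the pericytes and smooth muscle of vessels, was high in stroma by its mean without passing the test. Its intensity was 3529, 1838 and 2915 in urothelium, against 4191, 3807 and 1321 in detrusor, and 5224, 3694 and 4391 in stroma 1, 2 and 3. Stroma was above urothelium on all arrays, while detrusor overlapped both, with detrusor 3 the lowest array of the 9. Notch3 differed by log2 -0.66 ± 0.45 between detrusor and stroma, -0.71 ± 0.45 between urothelium and stroma, and -0.05 ± 0.45 between urothelium and detrusor (limma adjusted p = 0.416, 0.43 and 0.958). The median log2 level of 6 measured pericyte markers was 8.55 to 11.34 in urothelium, 12.60 to 12.94 in detrusor and 11.42 to 12.01 in stroma. The markers differed among themselves, with Pdgfrb at -0.96 and Rgs5 at -0.42 between detrusor and stroma and Cspg4, Kcnj8 and Mcam at 1.39, 1.33 and 1.57. In that comparison 4 of the 6 were above 0. Between urothelium and detrusor 1 of the 6 was called higher and 4 lower, where 8.37% and 8.05% of all genes were. The summed intensity of the 6 was 59978 to 69857 in urothelium, 35333 to 50854 in detrusor and 21053 to 58922 in stroma. Every urothelium array was thus above the other layers by the sum and below them by the median. The part of these markers in the Notch3 values was not tested.

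**Figure D3:**
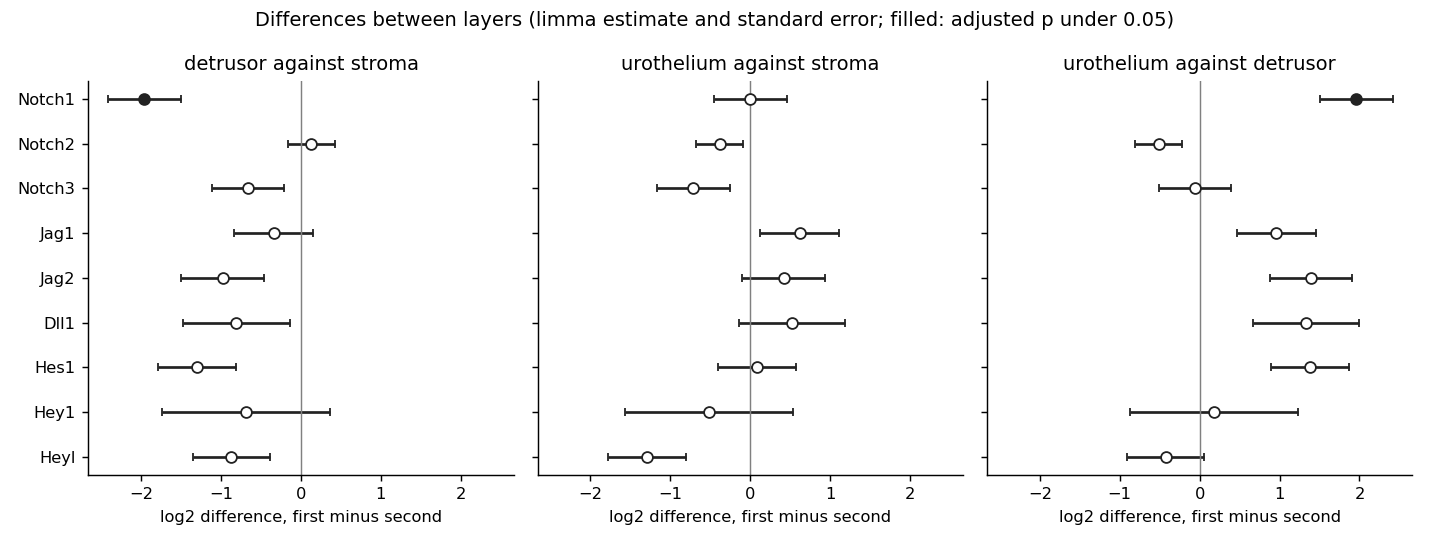
Log2 differences between layers for the 9 tested Notch genes, the first layer named in each panel title minus the second, with points for limma estimates, bars for standard errors and filled points for adjusted p under 0.05. Notch1 is filled at -1.96 for detrusor against stroma and at 1.96 for urothelium against detrusor.

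By the probe sets that stand for them, the 3 ligands each had their highest mean in urothelium and their lowest in detrusor. No difference was called, and with arrays centred on their medians Jag1 turned to 0.07 between detrusor and stroma. The other Jag1 probe sets ranked the layers otherwise, as given below. Jag1, a ligand of the Serrate type with known roles in epithelium and in vessels, had intensities of 14561, 4804 and 13633 in urothelium, against 6188, 6429 and 3221 in detrusor, and 5253, 4524 and 11066 in stroma 1, 2 and 3. Urothelium 2 was within the range of detrusor. Jag1 differed by log2 0.96 ± 0.50 between urothelium and detrusor, by 0.62 ± 0.50 between urothelium and stroma and by -0.34 ± 0.50 between detrusor and stroma (SE, limma adjusted p = 0.231, 0.544 and 0.716).

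Jag2, the second Serrate-type ligand, had intensities of 1471, 3339 and 1159 in urothelium, against 1073, 419 and 623 in detrusor, and 783, 1713 and 1750 in stroma. Urothelium was above detrusor on all arrays, and stroma overlapped both. Its difference was log2 1.39 ± 0.52 between urothelium and detrusor, 0.42 ± 0.52 between urothelium and stroma and -0.98 ± 0.52 between detrusor and stroma (limma adjusted p = 0.096, 0.716 and 0.289).

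Dll1, a ligand of the Delta type, had intensities of 2041, 653 and 2607 in urothelium, against 1016, 767 and 242 in detrusor, and 946, 586 and 2047 in stroma. All layers overlapped, with an SD of 0.88 to 1.03 log2 units within a layer. The differences were log2 1.33 ± 0.67 between urothelium and detrusor, 0.52 ± 0.67 between urothelium and stroma and -0.81 ± 0.67 between detrusor and stroma (SE, limma adjusted p = 0.215, 0.724 and 0.505).

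Among the target genes, Hes1, like Notch1, had its lowest values in detrusor. Hes1, a bHLH repressor that is the best known target of the pathway, had intensities of 2517, 942 and 1768 in urothelium, against 749, 625 and 449 in detrusor, and 1387, 923 and 2738 in stroma. Every detrusor array was below every urothelium and stroma array. The differences of log2 1.38 ± 0.49 between urothelium and detrusor and -1.30 ± 0.49 between detrusor and stroma did not pass (SE, limma adjusted p = 0.0819 and 0.146). The first passed with array weights (log2 1.71, adjusted p = 0.00641), with arrays centred on their medians (1.39, adjusted p = 0.041) and with the 6 arrays of the layers compared (1.38, adjusted p = 0.0495), and over all 23 alternatives adjusted p ranged from 0.00641 to 0.58. Urothelium and stroma differed by log2 0.08 ± 0.49.

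Heyl, a Hey family gene known from vascular smooth muscle, had its highest values in stroma. Its intensity was 713, 198 and 606 in urothelium, against 845, 588 and 463 in detrusor, and 1228, 1216 and 1028 in stroma. By these values all 3 stroma arrays were above all others, and urothelium and detrusor overlapped. Ranked within its array, Heyl stood at percentile 69.6 in stroma 3, under 70.3 in detrusor 1. By the second Heyl probe set that passed, stroma 1 (367) was below detrusor 1 and 2 (596 and 572) and urothelium 1 (507). The differences of log2 -1.29 ± 0.48 between urothelium and stroma and -0.87 ± 0.48 between detrusor and stroma were not called (SE, limma adjusted p = 0.177 and 0.313). Urothelium and detrusor differed by log2 -0.42 ± 0.48. The 9 endothelial markers were also highest in stroma, with a median log2 level of 8.86 to 10.55 in urothelium, 9.97 to 11.18 in detrusor and 11.29 to 12.22 in stroma. None of the 9 was called, and their part in the Heyl values was not tested.

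Hey1, a Hey family gene with known roles in vessels and heart, spread more within urothelium than between layers. Its intensity was 3251, 42.0 and 681 in urothelium 1, 2 and 3, against 841, 372 and 330 in detrusor, and 1324, 625 and 577 in stroma. Urothelium held both the highest and the lowest of the 9 values (SD of 2.68 log2 units, against 0.68 in detrusor and 0.63 in stroma). The lowest, in urothelium 2, was close to the added constant of 39.31. Hey1 reached its array's median on 8 of the 9 arrays, urothelium 2 being the exception. The differences were -0.69 ± 1.05 between detrusor and stroma, -0.51 ± 1.05 between urothelium and stroma and 0.17 ± 1.05 between urothelium and detrusor on the log2 scale (SE, limma adjusted p = 0.733, 0.838 and 0.941). Without urothelium 2 the difference of urothelium from stroma was 0.90 and without urothelium 1 that from detrusor was -1.08. The sign against detrusor also turned without detrusor 3 (-0.06).

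Hey2, the third of the family, reached its array's median on 1 of the 9 arrays. Its intensity was 141, 30.3 and 83.5 in urothelium, against 143, 261 and 55.7 in detrusor, and 51.3, 115 and 102 in stroma. All layers overlapped. The table holds no detection calls, so these low values cannot be read as absence. Differences of mean log2 levels, without a test, were 0.47 between detrusor and stroma, -0.12 between urothelium and stroma and -0.58 between urothelium and detrusor.

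Arrays that did not overlap were counted on the probe set that stands for each gene. Of the 9 genes 3 (Notch1, Hes1 and Heyl) lay lower in detrusor than in stroma and 0 higher. In that comparison 27.1% of all genes did not overlap (15.3% lower and 11.8% higher). Between urothelium and stroma 2 (Notch3 and Heyl) lay lower and 0 higher, against 23.1% (13.3% lower and 9.77% higher). Between urothelium and detrusor 3 (Notch1, Jag2 and Hes1) lay higher and 1 (Notch2) lower, against 39.3% (19.3% higher and 20.0% lower).

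Jag1, Dll1 and Hes1 separated the arrays in a second way that cut across the layers. Urothelium 1, urothelium 3 and stroma 3 had the 3 highest values of each of these genes. For Jag1 they ranged from 11066 to 14561, against 3221 to 6429 on the other 6 arrays. For Dll1 the ranges were 2041 to 2607 and 242 to 1016, and for Hes1 1768 to 2738 and 449 to 1387. The 3 arrays are of day 2, as are detrusor 3 and stroma 2, and their titles carry the numbers 2299, 2291 and 2295, which lie close together. The other titles carry 1848 and 2715 to 2951. The labels do not say what these numbers stand for, and the grouping was noticed after the levels had been seen. Of all 13064 genes, 2.69% were higher on these 3 arrays than on every other and 1.53% lower. Urothelial markers had median log2 levels of 13.54, 13.40 and 13.15 in urothelium 1, urothelium 3 and stroma 3, and of 14.79 in urothelium 2. Their part in the grouping was not tested.

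The 3 arrays were noticed through these genes, so a covariate that marks them takes up part of the differences of Jag1, Dll1 and Hes1 by construction, and the values are given as a description. With it, urothelium minus detrusor was log2 0.05 ± 0.39 for Jag1, 0.27 ± 0.62 for Dll1 and 0.59 ± 0.43 for Hes1 (SE), against 0.96, 1.33 and 1.38 without the covariate. For Jag2 it was 1.64 ± 0.64, and for Notch1 1.70 ± 0.57 (limma adjusted p = 0.129 and 0.0809). Detrusor minus stroma for Notch1 was then -1.83 ± 0.49 (adjusted p = 0.0645), so both Notch1 calls were lost. Detrusor has none of the 3 arrays, stroma 1 and urothelium 2, so layer and title number can be told apart only in part. The setting was chosen after seeing the data.

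Over the 9 arrays the level of Jag1 had Pearson's r of 0.96 with that of Dll1, and Hes1 had 0.88 with Notch1, 0.88 with Dll1 and 0.84 with Jag1. Notch3 had 0.78 with Heyl, and Heyl 0.73 with Hey1. Notch2 ran opposite, with -0.80 against Jag1 and -0.79 against Hes1. The points share layer, array and scaling, so these figures describe the arrays only. Of all genes tested, those most like each member by Pearson's r over the 9 arrays were Kmt2b (0.976) and Pcyt2 (0.969) for Notch1, Diablo (0.950) and Fbh1 (0.948) for Notch2, and Sox17 (0.965) and Zfp712 (0.958) for Notch3. For Jag1 they were Ptpru (0.983) and Dll1 (0.958), for Jag2 Tmem209 (0.979) and Def6 (0.957), and for Dll1 Sik2 (0.980) and Jag1. For Hes1 they were Nmrk1 (0.979) and Hoxb6 (0.974), for Hey1 Irx3 and Mcur1 (0.905 each), and for Heyl Tle4 (0.964) and Rnf220 (0.960). The largest of so many coefficients over so few arrays is high for almost any gene.

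Several probe sets passed for 5 members, and 6 of them do not stand for their gene. Over the 3 layer comparisons 13 of the 18 differences from these 6 had the sign of the probe set that stands for the gene and 5 the opposite, and 0 were called in a limma fit of all 25693 probe sets that passed. Notch1 by its second probe set differed by log2 -1.38 ± 0.50 between detrusor and stroma and by 0.88 ± 0.50 between urothelium and detrusor (SE, adjusted p = 0.157 and 0.318). Jag2 by its second probe set differed by 1.96 ± 0.76 between urothelium and detrusor, and Heyl by -1.89 ± 0.72 between urothelium and stroma (adjusted p = 0.138 and 0.242). Jag1 disagreed among its probe sets, at -0.34, -0.33 and 0.88 between detrusor and stroma. In the same order they stood at 0.62, -0.43 and 1.35 between urothelium and stroma, and at 0.96, -0.09 and 0.48 between urothelium and detrusor. The Notch3 probe set that passed carries the suffix for sets that can match several transcripts, and another Notch3 and another Heyl probe set were below their array's median on all 9 arrays.

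**Figure D4:**
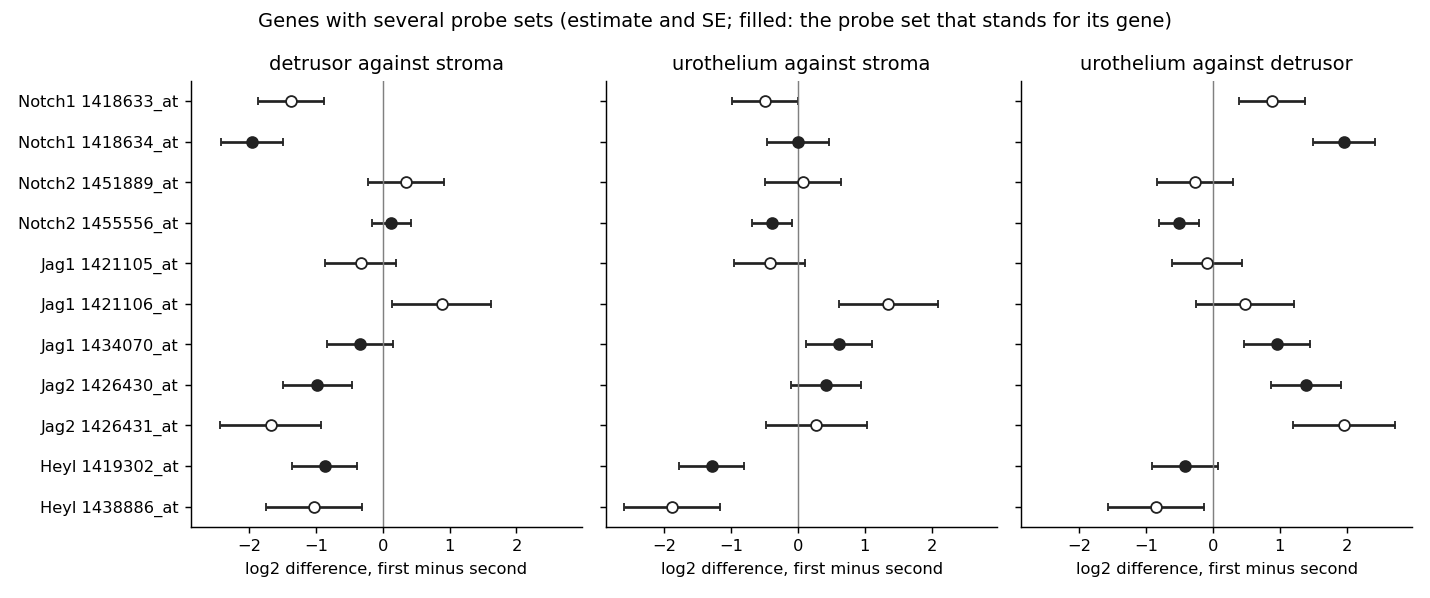
Log2 differences between layers (first named minus second) for every probe set that passed of the 5 Notch genes with several, from a limma fit of all probe sets, with standard errors. Filled points are the probe sets that stand for their genes. The Notch1 pair lies below 0 for detrusor against stroma (-1.96 and -1.38), and the 3 of Jag1 fall on both sides of 0.

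Other genes of the pathway were taken from lists of 50, of which 40 were tested, 6 fell below the filter (Dll3, Hes2, Hes3, Hes5, Hes7 and Maml2) and 4 were not analysed here. Between urothelium and detrusor 3 of the 40 were higher and 6 lower, where 8.37% and 8.05% of all genes were, and the median of the 40 was -0.08. These 9 calls fell to 1 without urothelium 2, 2 without detrusor 2 or detrusor 3, 4 without urothelium 1 and 5 without detrusor 1. Between detrusor and stroma 1 was higher and 1 lower (median -0.00), where 3.12% and 2.72% of all genes were, and 0 were called without detrusor 2, detrusor 3 or stroma 3, and 1 without urothelium 1. Between urothelium and stroma 0 were called, where 0.230% of all genes were (median of the 40 -0.08, 18 of 40 above 0). Without stroma 3, 1 was called, and the number called of all genes rose from 30 to 528. Without stroma 3 and urothelium 3 the numbers called were 8, 0 and 1, and with the 3 close title numbers as a covariate 3, 1 and 0.

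Nrarp, a target gene whose protein restrains Notch signalling, was 4.24-fold higher in urothelium than in detrusor (log2 2.09 ± 0.51, limma adjusted p = 0.0181). Its intensity was 9837, 12522 and 5919 in urothelium, against 4284, 1822 and 1163 in detrusor, with no overlap, and 7884, 3183 and 6143 in stroma. It was called in 17 of 23 alternatives, and not without detrusor 2, detrusor 3, urothelium 1 or urothelium 2. Dlk2, a Delta-like protein that is not a standard ligand, was 8.34-fold higher in urothelium than in detrusor (log2 3.06 ± 0.53, adjusted p = 0.00345) and 4.21-fold lower in detrusor than in stroma (log2 -2.07 ± 0.53, adjusted p = 0.0441). Its call between urothelium and detrusor held under all 23 alternatives, with log2 differences from 2.51 to 3.88, while the call against stroma held under 6 of 23. Dlk1, its relative and an imprinted gene, was 7.86-fold lower in urothelium than in detrusor (log2 -2.97 ± 0.73, adjusted p = 0.0178), and differed by log2 -2.98 ± 0.73 between urothelium and stroma without passing (adjusted p = 0.0682). The Dlk1 call held in 19 of 23 alternatives and was lost without detrusor 1 or urothelium 2. The probe sets of Dlk2 (suffix x) and Dlk1 (suffix s) carry suffixes for sets that can match more than a single transcript.

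Rbpj, the DNA-binding partner of all Notch receptors, was lower in urothelium than in detrusor. Its intensity was 7960, 7043 and 9428 in urothelium, against 17610, 23957 and 20978 in detrusor, and 17106, 8894 and 7159 in stroma. All 3 detrusor arrays were above the rest (urothelium minus detrusor log2 -1.35 ± 0.33, limma adjusted p = 0.0178), and detrusor and stroma differed by 1.00 ± 0.33 (adjusted p = 0.101). The call for urothelium against detrusor held in 16 of 23 alternatives and was lost with arrays centred on their medians (adjusted p = 0.0729), with the title numbers as a covariate (adjusted p = 0.0864), and without detrusor 2, detrusor 3, urothelium 1 or urothelium 2 (adjusted p from 0.056 to 0.0669). The lowest Notch1 and Hes1 were measured in the layer with the highest Rbpj. Kat2b, an acetyltransferase and transcriptional coactivator, was 3.09-fold higher in detrusor than in stroma (log2 1.63 ± 0.32, adjusted p = 0.0192). It was called in 18 of 23 alternatives, not without detrusor 2, detrusor 3 or stroma 3. The Kat2b probe set also carries the suffix s.

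Among genes of endocytosis and ubiquitin transfer, 1 of 13 was higher and 3 were lower in urothelium than in detrusor, where 8.37% of all genes were higher and 8.05% lower. Numb, an endocytic adaptor that opposes Notch, was higher (log2 1.21 ± 0.35, limma adjusted p = 0.0363), and its relative Numbl was lower (log2 -1.51 ± 0.45, adjusted p = 0.0436). The ubiquitin ligase genes Mib1 (log2 -1.05 ± 0.28, adjusted p = 0.0284) and Neurl1a (log2 -2.58 ± 0.65, adjusted p = 0.0212) were lower. Over 23 alternatives Numb was called in 16, Numbl in 11, Mib1 in 12 and Neurl1a in 16, each with its direction kept. Each of the 4 was lost without detrusor 2, detrusor 3, urothelium 1 or urothelium 2. Mib1 was also lost without urothelium 3 (limma adjusted p = 0.0707) and Neurl1a without detrusor 1 (limma adjusted p = 0.0502). Numbl was lost in 6 of the 9 fits without 1 array. With the mean of a gene's probe sets, Mib1 stood at -0.74 (adjusted p = 0.205) and Neurl1a at -1.36 (adjusted p = 0.0696). Mib1 protein acts on ligands in the cell that sends the signal. Of the fringe and O-glycosylation genes 0 of 5, and of the receptor cleavage genes 0 of 8 tested, were called in any layer comparison. Of all genes 5.84% were called between detrusor and stroma, 0.230% between urothelium and stroma and 16.4% between urothelium and detrusor. Psen2, the cleavage gene with the lowest adjusted p, differed by log2 -1.45 ± 0.45 between urothelium and detrusor (limma adjusted p = 0.0513). In that comparison 4 of the 8 cleavage genes were above 0. Lfng, a fringe glycosyltransferase, had 260, 220 and 269 in urothelium, against 157, 35.7 and 26.2 in detrusor, and its difference of log2 1.54 ± 0.59 did not pass (adjusted p = 0.107).

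Notch4, a receptor known from endothelium, was 3.30-fold lower in urothelium than in detrusor (log2 -1.72 ± 0.47, limma adjusted p = 0.0292), with intensities of 246, 61.4 and 178 in urothelium, against 596, 489 and 631 in detrusor, and 507, 526 and 558 in stroma. Dll4, a ligand known from the same cells, had 284, 141 and 255 in urothelium, against 398, 269 and 231 in detrusor, and 763, 257 and 525 in stroma, with no difference called. Notch4 was called in 18 of 23 alternatives, and not without stroma 3 and urothelium 3 (log2 -1.84 ± 0.56, adjusted p = 0.0597) or without detrusor 1, detrusor 2, detrusor 3 or urothelium 2. The endothelial sums of these arrays are given above, and their part in the Notch4 values was not tested.

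**Figure D5:**
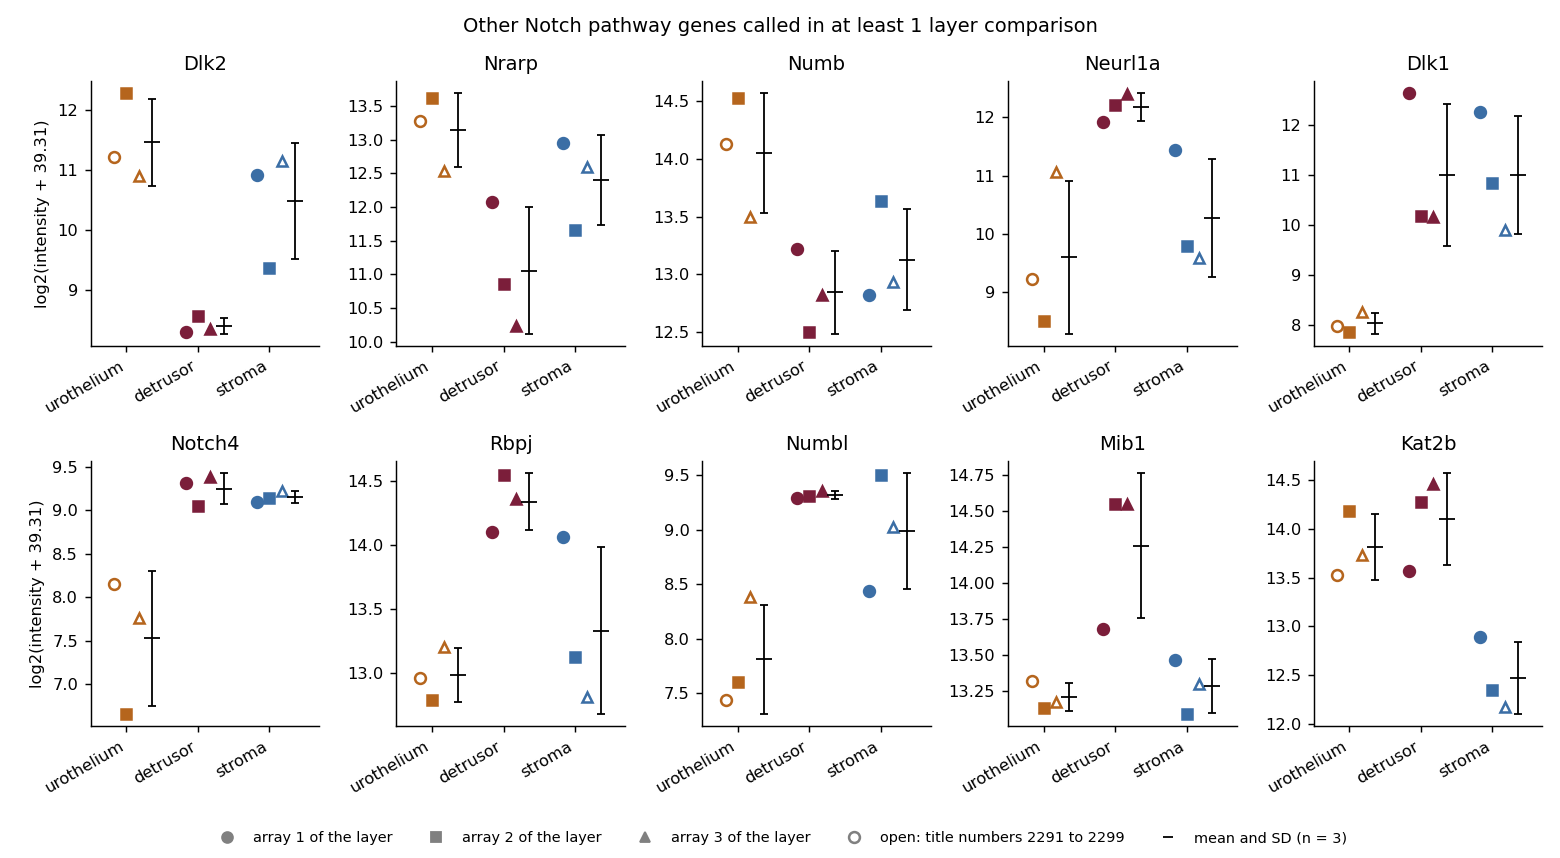
Log2(intensity + 39.31) on each array of the 10 other Notch pathway genes called in at least 1 layer comparison, by layer and each panel with its own vertical scale. Points are arrays, bars the mean and SD of 3 arrays, and open points the arrays with title numbers 2291 to 2299. Dlk2, Nrarp and Numb are higher and the next 6 genes lower in urothelium than in detrusor, and Kat2b is higher in detrusor than in stroma.

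Age was tested in a fit that also held the layers, and 0 of the 9 members were called between day 2 (5 arrays) and day 1 (4 arrays), where 0.0153% of all genes were (0.00765% higher and 0.00765% lower). The members' differences ranged from -0.38 for Notch3 to 0.82 for Hey1 on the log2 scale (SE 0.39 and 0.91), and the lowest adjusted p was 0.924. At an unadjusted p under 0.05, 727 of all genes would pass in this comparison.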

How the data were processed

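The deposited table holds linear probe set intensities that the authors made with GCOS, Affymetrix software, per the submitters' processing notes. The sources used here give neither its version nor its settings. RNA went through 2 rounds of amplification and was labelled with biotin, per the labels' protocols. The mean after trimming 2% of probe sets at each end was 1500 on every array, so the authors' scaling was kept. Of 45101 probe sets, 64 were controls, 34945 carried a single symbol by the platform annotation, 932 carried several and stayed unnamed, and 9160 carried none. Values were taken as log2(intensity + 39.31), the constant being the 20th percentile of all deposited values. A probe set was kept when it reached the median of its array on 3 or more arrays, and among a gene's probe sets the brightest on average represented it. Layers were compared with limma 3.58.1 (R 4.3.3; lmFit, eBayes with trend) in 1 fit over 9 arrays, and called at a Benjamini-Hochberg adjusted p under 0.05. The fit was tested on simulated data. Precision is limited by the number of arrays. The members, the lists of other pathway genes and markers, and the rules for naming genes were chosen with earlier results of these data known. Named are all members, in each comparison up to 4 called pathway genes per direction with the largest differences, Notch4, Dll4, Rbpj, Lfng and Nrarp, and the 2 genes most like each member. Mib1 and Psen2 fall outside this rule and were named after their values were seen. Alternatives were other normalizations, pseudocounts, filters, probe set rules, variance models, covariates and sets of arrays.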

Additional observations from a re-analysis of the deposited data

How the results depend on the processing

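No paired analysis was possible because the labels give no replicate numbers that tie arrays of different layers. Across 23 alternatives the sign of the Notch1 difference held in both comparisons with detrusor, with log2 differences from -2.46 to -1.54 against stroma (12 of 23 called) and from 1.42 to 2.46 for urothelium against detrusor (18 of 23 called). The settings that use title numbers were chosen after seeing the data. Where a change is given, the cause was not tested. Members called between detrusor and stroma were 0 instead of 1 with arrays centred on their medians, array weights, only the 6 arrays of the layers compared, without stroma 3 and urothelium 3 together, and with the title numbers 2291 to 2299 as a covariate or left out, and 0 to 1 over the fits without 1 array. Between urothelium and detrusor they were 2 with median centring or only the 6 arrays of the layers compared, 4 with array weights (Notch1, Jag1, Dll1 and Hes1), 0 with the title numbers as a covariate or those arrays left out, and 0 to 1 without 1 array. Between urothelium and stroma they were 0 throughout. Of all 13064 genes, 763 were called between detrusor and stroma in the fit as reported. The number was 732 with median centring, 818 with array weights, 625 with the 6 arrays and 661 with the title-number covariate. Between urothelium and detrusor 2145 were called. That number was 1736 with median centring, 2752 with the 6 arrays, 3785 with array weights and 1685 with the title-number covariate.

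All genes called between detrusor and stroma, 763, were 428 without stroma 3 and urothelium 3 together, 340 without the arrays with title numbers 2291 to 2299 and 105 to 851 without 1 array. Between urothelium and detrusor, 2145 became 3785 with array weights, 1417 without the arrays with title numbers 2291 to 2299 and 1172 to 2435 without 1 array. Between urothelium and stroma, 30 became 93 with quantile normalization, 223 with median centring, 13 and 304 with the pseudocount at the 5th percentile and at the median, 10 without a filter, 116 with the mean of a gene's probe sets, 0 without the mean-variance trend, 11 with array weights, 0 with only the 6 arrays, 10 with day as covariate, 440 without stroma 3 and urothelium 3 together, 2 and 297 with the title numbers as a covariate and left out, and 0 to 528 without 1 array. Each 0 came from limma after adjustment. In the fit as reported, which called 30, 2481 genes had an unadjusted p under 0.05, and that count is not given for the fits that called 0. For postnatal day, 2 genes became 5 with every probe set on its own and 2 to 4 without 1 array. With median centring the all-gene median shifted by 0.41 between detrusor and stroma, 0.42 between urothelium and stroma and 0.01 between urothelium and detrusor, with 588 higher and 144 lower instead of 408 and 355 in the first.

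Uncalled differences changed sign as follows. Between detrusor and stroma Notch2 (0.13) was -0.12 without stroma 3 and urothelium 3 together, -0.03 and -0.12 with the title numbers as a covariate and left out, and -0.12 to 0.30 without 1 array. Jag1 (-0.34) was 0.07 with median centring and with the mean of its probe sets, 0.05 without stroma 3 and urothelium 3 together, 0.11 and 0.05 with the title numbers as a covariate and left out, and -0.59 to 0.05 without 1 array. Between urothelium and stroma Notch1 (0.00) was -0.06 with quantile normalization, -0.25 with the mean of its probe sets, -0.13 with the title numbers as a covariate and -0.27 to 0.23 without 1 array. Notch2 (-0.38) was 0.04 with median centring, Jag1 (0.62) was -0.02 without the title-number arrays, and Jag2 (0.42) was -0.03 to 0.72 without 1 array. Dll1 (0.52) and Hes1 (0.08) were -0.01 and -0.31 with the title numbers as a covariate and -0.18 and -0.26 without those arrays, and Hes1 was -0.27 to 0.50 without 1 array. Hey1 (-0.51) was 0.69 with array weights and -1.77 to 0.90 without 1 array. Between urothelium and detrusor Notch3 (-0.05) was 0.30 with array weights, 0.07 with day as covariate and -0.58 to 0.24 without 1 array, and Heyl (-0.42) was -0.74 to 0.09. Jag1 (0.96) was -0.07 without the title-number arrays. Hey1 (0.17) was -0.10 with day as covariate, -1.03 and -2.65 with the title numbers as a covariate and left out, and -1.08 to 1.59 without 1 array.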
